A study of Mus musculus with 9 samples.

Results

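The mRNA of 10 tight junction genes was followed across 9 RNA-seq libraries of mouse intrahepatic cholangiocarcinoma (iCCA) cells with and without a Vcam1 knockout. The genes were the claudins Cldn1, Cldn2, Cldn3, Cldn4, Cldn6, Cldn7 and Cldn12, the strand proteins Ocln and F11r, and the plaque protein Cgn, taken by symbol from a table of 55276 symbols. All 10 had a row, and 8 passed the filter on low counts. The cells were the PPTR line, grown from liver cancer organoids of mice with Prom1CreERT2, floxed (flx/flx) alleles and a Rosa-ZsGreen reporter, and all 3 groups share this Prom1-driven Cre and these alleles. Vcam1ctrl cells, which the labels call WT, were compared with Vcam1KO1 and Vcam1KO2 cells, each of them 1 clone grown from a single cell after Cas9 cutting in exon 2 of Vcam1. Each group had 3 libraries, which the study made from different passages. With 1 control culture and 2 clones, an effect of the knockout and a difference that a clone carried from its founding cell cannot be told apart.

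Tight junctions seal the space between neighbouring epithelial cells near their apical side. Claudins polymerise into the strands that hold the membranes together, and the set of claudins a cell makes decides whether the seal is tight or lets ions and water through. Occludin and the junctional adhesion molecules sit in or beside the strands, and ZO proteins, cingulin and other plaque proteins tie them to actin. Bile duct cells, from which iCCA is thought to arise, use these junctions to keep bile inside the duct. Many of these genes are part of the epithelial programme that Snail and Zeb repressors turn down in epithelial-to-mesenchymal transition.

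Counts were scaled to the size of the normalised library (CPM), and all tests are the quasi-likelihood test of edgeR. The p values were adjusted over 17672 genes by the method of Benjamini and Hochberg, with 0.05 as the threshold. Levels are means ± SD of 3 libraries and log2 fold changes are given ± SE. Libraries are the unit of these tests, so p values and SE do not measure how knockout clones or control cultures vary. Library totals lay between 53415907 and 125223073 counts, and pairs of libraries within a group differed by 35.8 to 275 in chi-square per degree of freedom, so no library was a repeat of another. The study reported loss of Vcam1 in both clones by qRT-PCR and by flow cytometry of the protein. Vcam1 mRNA, the target, was still present in the clones by these counts, which do not measure protein. It stood at 248, 221 and 329 CPM in Vcam1ctrl, at 98.8, 92.4 and 128 CPM in Vcam1KO1 and at 119, 99.4 and 83.0 CPM in Vcam1KO2 libraries (log2 fold change -1.36 ± 0.17 (SE), adjusted p = 0.00021 for the 6 clone libraries against the 3 controls). Of 6 biliary markers, 4 fell with both clones combined, where 21.2% of all tested genes fell. The mean of Krt19 was 2292 ± 145 CPM (SD, n = 3) in Vcam1ctrl, 0.0596 ± 0.0387 in Vcam1KO1 and 0.149 ± 0.0672 in Vcam1KO2 libraries. This keratin of bile ducts was thus nearly absent from both clones. Spp1 (osteopontin) rose instead, from 2474 ± 576 CPM to 10580 ± 356 and 9640 ± 1890 (adjusted p = 8.21e-05), Sox9 did not pass, and the summed level of the 6 biliary markers was 4460 to 5726 CPM in Vcam1ctrl, 10540 to 10970 CPM in Vcam1KO1 and 7566 to 11020 CPM in Vcam1KO2 libraries. The summed level of 6 hepatocyte markers was 44.3 to 176 CPM in Vcam1ctrl, 1.56 to 3.02 CPM in Vcam1KO1 and 0.281 to 0.531 CPM in Vcam1KO2 libraries, and the 4 tested ones fell with both clones combined. Of 11 fibroblast and stellate cell markers, 8 were tested and 6 rose with both clones combined, where 21.7% of all tested genes rose. In Vcam1KO1 alone 5 rose and Dcn fell, where 29.9% of all tested genes rose and 30.0% fell. The summed level of the 11, to which Col1a1 gave most in the clones (99.4 ± 41.1 CPM in Vcam1ctrl, 8530 ± 715 and 4735 ± 464 in the clones), was 431 to 836 CPM in Vcam1ctrl, 10470 to 13050 CPM in Vcam1KO1 and 6219 to 7531 CPM in Vcam1KO2 libraries. The summed level of 6 endothelial markers was at most 2.04 CPM and that of 6 haematopoietic markers at most 8.94 CPM in every library. Most of the haematopoietic sum was Cd68, at 3.5 to 8.8 CPM, while Cd3e, which defines T cells, was at or near 0. Ptprc fell with both clones combined (adjusted p = 0.000294), from 0.410 ± 0.0303 CPM to 0.0471 ± 0.0279 and 0.0471 ± 0.0203. In bulk RNA, fewer cells with a transcript and less of it per cell cannot be told apart, and the part of these markers in the values below was not tested.

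The main picture was a loss of most of the junction mRNAs and a gain of 1. With both clones combined, 7 of the 8 tested members fell and Cldn1 rose, where 21.2% of all tested genes fell and 21.7% rose. The median log2 fold change of these 8 genes was -4.46, beside 0.07 over all tested genes. Those 7 members lay lower in every clone library than in every control library, which held for 23.0% of all tested genes, and Cldn1 lay higher in every clone library, which held for 21.2%. Several members passed the filter only through the group in which they were high, so the count describes these genes and is not a test of the family. Cldn6 and Cldn7 were too low to test.

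**Figure D1:**
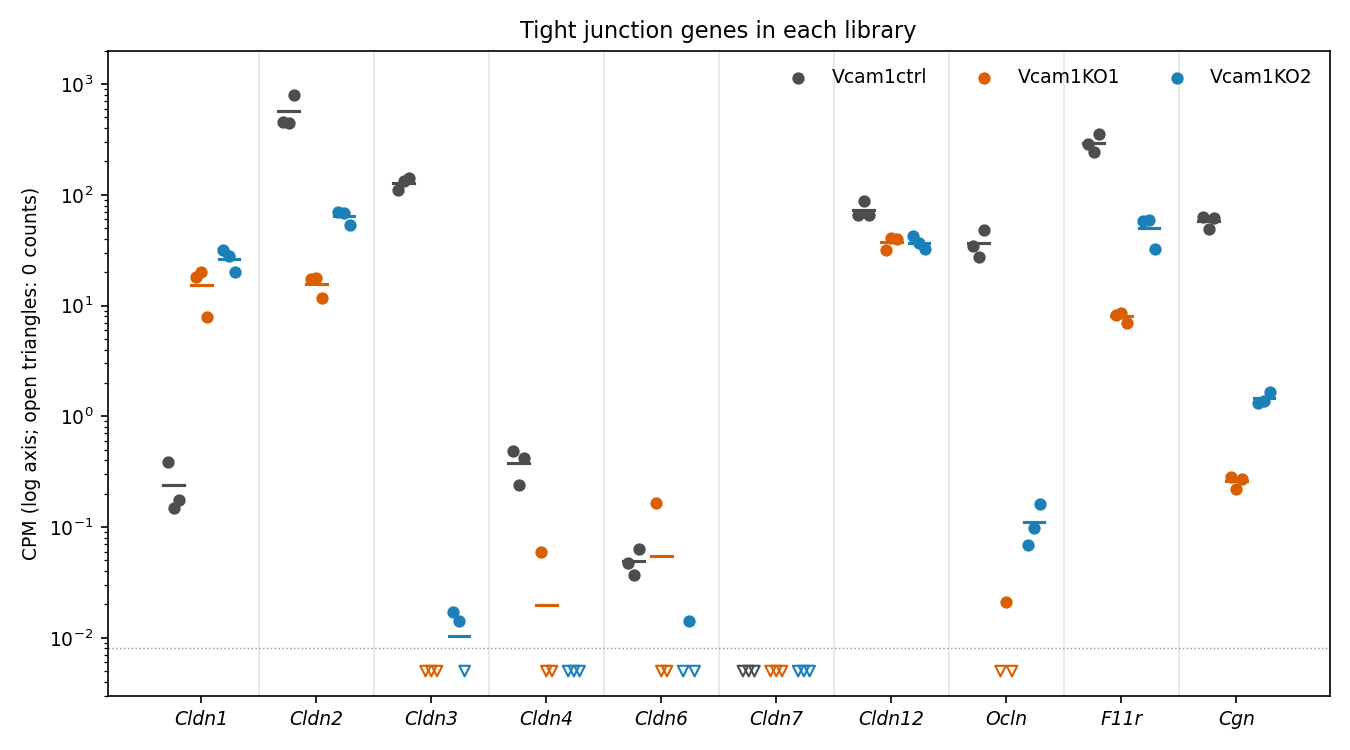
CPM (log axis) of the 10 tight junction genes in each of the 9 libraries, as points coloured by group, with a short bar at the group mean where it lies above the dotted line and open triangles under that line for libraries with 0 counts. Cldn1 is the one gene with every clone library above the controls, Cldn3 and Ocln drop to or near 0 counts in both clones, and Cldn7 has 0 counts in all 9 libraries.

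Cldn2, the claudin that forms channels for cations and water, had the highest mean CPM over all 9 libraries, although Cldn12 was above it in Vcam1KO1. Its level was 458, 447 and 803 CPM in Vcam1ctrl, 17.3, 17.8 and 11.7 CPM in Vcam1KO1 and 70.0, 68.8 and 53.5 CPM in Vcam1KO2 libraries. The 3 groups did not overlap, with the lowest level in Vcam1KO1. The log2 fold change was -3.84 ± 0.59 (SE) with both clones combined (adjusted p = 0.000718), a 14.3-fold fall. Taken alone, Cldn2 fell by 36.4-fold in Vcam1KO1 and by 8.88-fold in Vcam1KO2.

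Cldn3 and Cldn4 are sealing claudins that also serve as receptors for the Clostridium perfringens enterotoxin. Cldn3 had 13743, 7214 and 11122 counts in Vcam1ctrl libraries, 0 counts in all 3 Vcam1KO1 libraries and 1, 1 and 0 counts in Vcam1KO2 libraries. In CPM this was 110, 133 and 141 in control cells and at most 0.0171 in any clone library. Cldn3 was therefore an abundant transcript in the control and at the limit of detection in both clones. Against a floor of 3 counts over the group, it was at least 9309-fold lower in Vcam1KO1. The 2 counts in Vcam1KO2 give a 12190-fold fall, with an exact 95% interval of 3370 to 101000 that covers counting error only. The adjusted p was 6.43e-08 with both clones combined.

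Cldn4 was low everywhere, with 61, 13 and 33 counts in Vcam1ctrl, 4, 0 and 0 in Vcam1KO1 and 0 in all 3 Vcam1KO2 libraries. The control libraries held 0.486, 0.240 and 0.417 CPM, and the highest clone library, Vcam1KO1 replicate 1, held 0.0599 CPM. All 5 other clone libraries had no count. With both clones combined the log2 fold change was -5.09 ± 0.95 (adjusted p = 0.00222), and it was -7.90 without that library. In Vcam1KO1 alone it moved from -4.29 to -7.91 without replicate 1 and to -3.58 without replicate 2. In Vcam1KO2, Cldn4 was at least 27.1-fold lower against the floor of 3 counts over the group.

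Cldn1, a sealing claudin that the barrier of the skin and of bile ducts depends on, moved the other way. Its level was 0.390, 0.148 and 0.177 CPM in Vcam1ctrl (49, 8 and 14 counts), 18.0, 20.0 and 7.95 CPM in Vcam1KO1 and 31.7, 28.1 and 20.1 CPM in Vcam1KO2 libraries. It was close to absent in control cells and present in every clone library, with Vcam1KO1 replicate 3 the lowest of the 6. The log2 fold change was 6.40 ± 0.60 with both clones combined (adjusted p = 3.65e-05), an 84.5-fold rise. In each clone alone it was 5.91 ± 0.49 and 6.70 ± 0.50, and 6.52 and 7.32 without control replicate 1, which held most of the control counts.

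Cldn12, a widely expressed claudin that lacks the usual C-terminal anchor for ZO proteins, changed least. It stood at 65.4, 87.9 and 65.4 CPM in Vcam1ctrl, 31.5, 40.6 and 40.3 CPM in Vcam1KO1 and 42.7, 36.4 and 32.2 CPM in Vcam1KO2 libraries. The clones overlapped each other, and all 6 of their libraries were below the 3 controls. The log2 fold change was -0.97 ± 0.14 with both clones combined (adjusted p = 0.000596), a 1.95-fold fall. When the test asked for a change beyond 2-fold, Cldn12 no longer passed (adjusted p = 0.841).

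Cldn6, a claudin of embryonic epithelia, had 6, 2 and 5 counts in Vcam1ctrl, 11, 0 and 0 in Vcam1KO1 and 0, 1 and 0 in Vcam1KO2 libraries. The groups overlapped, and its highest level, 0.165 CPM, was in the same Vcam1KO1 library that held the Cldn4 counts. Cldn7, a sealing claudin that binds EpCAM in many epithelia, had 0 counts in all 9 libraries, which allows up to 0.0116 CPM over the Vcam1ctrl, 0.0133 CPM over the Vcam1KO1 and 0.0153 CPM over the Vcam1KO2 libraries.

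Occludin (Ocln), the first membrane protein found in the strands, had 4342, 1502 and 3795 counts in Vcam1ctrl, 0, 2 and 0 in Vcam1KO1 and 4, 7 and 11 in Vcam1KO2 libraries. In CPM this was 34.6, 27.7 and 48.0 in control cells, at most 0.0209 in Vcam1KO1 and 0.0685, 0.0990 and 0.163 in Vcam1KO2. Every Vcam1KO2 library lay above every Vcam1KO1 library, both far under the control. The fall was 4196-fold in Vcam1KO1 from the summed counts, with an exact 95% counting interval of 1160 to 34700. In Vcam1KO2 the log2 fold change was -8.35 ± 0.43 (adjusted p = 6.01e-07). With both clones combined it was -9.27 ± 0.79 (adjusted p = 2.07e-05) and -9.93 without Vcam1KO2 replicate 3, while in Vcam1KO1 it moved from -11.78 to -14.39 without replicate 2, the one library of that clone with counts.

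F11r encodes JAM-A, an immunoglobulin-like adhesion molecule that recruits the polarity protein Par3 to young junctions. Its level was 286, 245 and 354 CPM in Vcam1ctrl, 8.28, 8.65 and 6.99 CPM in Vcam1KO1 and 58.1, 59.2 and 32.5 CPM in Vcam1KO2 libraries. The 3 groups did not overlap. F11r fell by 10.2-fold with both clones combined (log2 fold change -3.35 ± 0.71, adjusted p = 0.00448), by 36.9-fold in Vcam1KO1 and by 5.91-fold in Vcam1KO2.

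Cingulin (Cgn), a coiled-coil plaque protein that binds ZO-1 and actomyosin, had 63.1, 48.9 and 62.1 CPM in Vcam1ctrl, 0.285, 0.219 and 0.271 CPM in Vcam1KO1 and 1.32, 1.39 and 1.66 CPM in Vcam1KO2 libraries. Again the 3 groups were apart. Its log2 fold change was -6.09 ± 0.68 with both clones combined (adjusted p = 0.00011), a 67.9-fold fall. It was 225-fold lower in Vcam1KO1 and 39.8-fold lower in Vcam1KO2.

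Each clone was also compared with the control on its own. In Vcam1KO1, 7 members fell and 1 rose, where 30.0% of all tested genes fell and 29.9% rose. In Vcam1KO2 the counts were again 7 and 1, where 26.1% of genes fell and 25.3% rose. Both comparisons use the same 3 control libraries, so the second is not an independent repeat of the first.

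**Figure D2:**
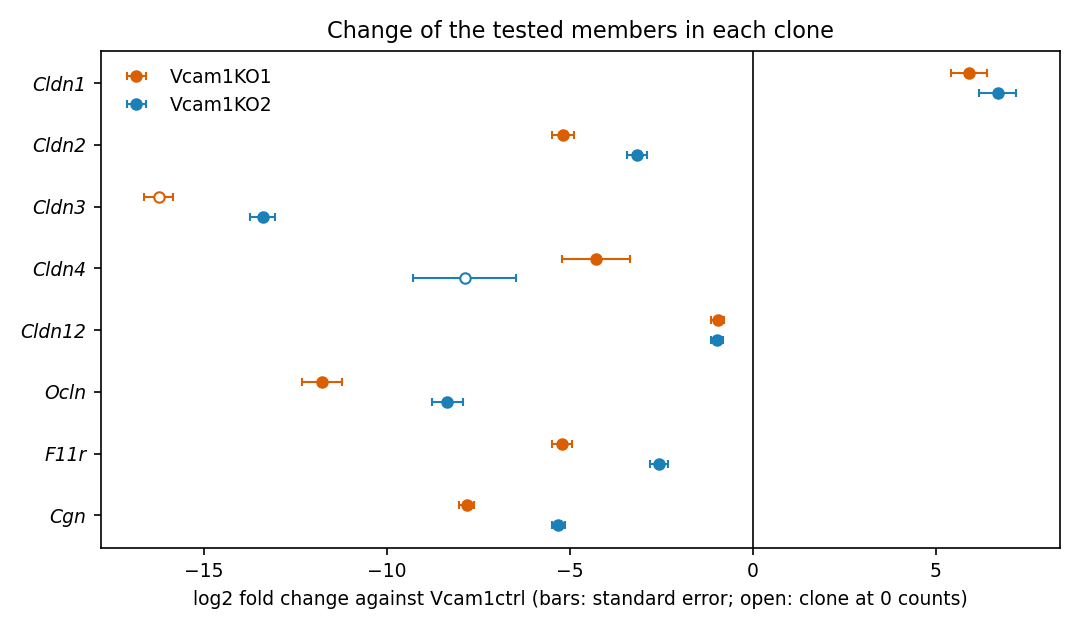
Log2 fold change (horizontal axis) of the 8 tested members in Vcam1KO1 and in Vcam1KO2 against the same 3 Vcam1ctrl libraries, with bars for the standard error. Open points mark Cldn3 in Vcam1KO1 and Cldn4 in Vcam1KO2, where the clone had 0 counts and the fitted value depends on the prior count. Cldn1 lies right of 0 in both clones, and Cldn2, Ocln, F11r and Cgn lie further left in Vcam1KO1 than in Vcam1KO2.

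The clones differed in how far the junction genes fell. Tested against each other, 4 of the 8 members were higher in Vcam1KO2, where 18.5% of all tested genes were, and 0 were higher in Vcam1KO1, where 20.2% of all tested genes were. The count of 0 was the same at an unadjusted p under 0.05 in edgeR, in limma-voom and in DESeq2. The 4 genes were Cldn2 (log2 difference of Vcam1KO1 from Vcam1KO2 -2.03 ± 0.26, adjusted p = 0.000422), Ocln (-3.44 ± 0.79, adjusted p = 0.00782), F11r (-2.65 ± 0.24, adjusted p = 6.66e-05) and Cgn (-2.50 ± 0.19, adjusted p = 2.07e-05). For Ocln the difference rests on 2 counts in Vcam1KO1, and it was -6.05 without replicate 2, which held them. Cldn1 was lower in Vcam1KO1 by 0.80 ± 0.38 on the log2 scale, which did not pass (adjusted p = 0.123), and its ranges, 7.95 to 20.0 and 20.1 to 31.7 CPM, only just failed to overlap. Cldn12 differed by 0.01 ± 0.17 (adjusted p = 0.958). Cldn3 and Cldn4 had too few counts in the clones for their difference to be read at this depth.

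To compare genes with each other, levels were divided by the length of their annotated exons (CPM per kb). In Vcam1ctrl cells Cldn2 led with 171 ± 60.9 CPM per kb (SD, n = 3), followed by F11r with 111 ± 20.6 and Cldn3 with 102 ± 12.9. F11r and Cldn3 overlapped between libraries, and Cldn2 lay above both. Cldn12 came next with 17.2 ± 3.07 CPM per kb, above Cgn with 9.64 ± 1.31 and Ocln with 8.71 ± 2.44, which overlapped each other. Cldn4, Cldn1 and Cldn6 stayed under 0.3 CPM per kb in every control library.

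The order was different in the clones. In Vcam1KO1 cells Cldn12 led with 8.86 ± 1.22 CPM per kb, above Cldn2 with 4.70 ± 1.02. Cldn1 with 3.16 ± 1.33 and F11r with 2.99 ± 0.327 followed, and Cldn1 overlapped both F11r and Cldn2. In Vcam1KO2 cells Cldn2 with 19.3 ± 2.77 CPM per kb and F11r with 18.8 ± 5.67 overlapped at the top. Below them Cldn12 stood at 8.77 ± 1.25 and Cldn1 at 5.50 ± 1.23, with no overlap between these. Cgn and Ocln were under 0.3 CPM per kb in every clone library.

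Summed over the 33 claudin genes in the table, the level was 242 to 371 CPM per kb in Vcam1ctrl, 19.6 to 22.4 in Vcam1KO1 and 30.4 to 40.5 in Vcam1KO2 libraries. The 3 groups did not overlap. In control libraries Cldn2 made up 51.2% to 65.1% of that sum and Cldn3 30.1% to 40.3%, with 4.17% to 7.93% from Cldn12 and at most 0.0333% from Cldn1. The claudin mRNA of control cells was thus almost wholly Cldn2, Cldn3 and Cldn12. In Vcam1KO2 libraries Cldn2 kept 52.0% to 54.2% of a smaller sum, and Cldn12 held 22.6% to 25.1% and Cldn1 13.7% to 16.2%. In Vcam1KO1 libraries Cldn12 held 37.6% to 48.5%, Cldn2 18.0% to 26.3% and Cldn1 8.36% to 18.7%. Shares can rise where a gene's own level falls, as that of Cldn12 did.

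**Figure D3:**
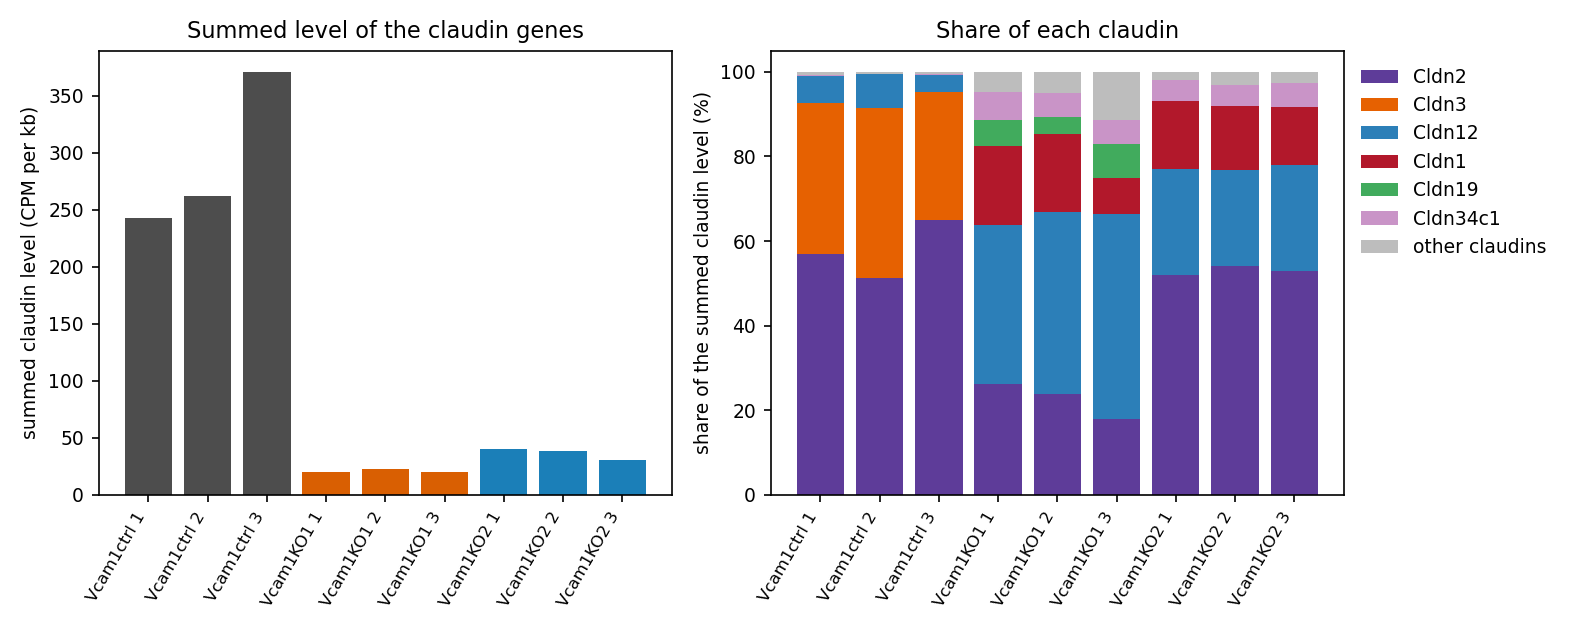
Left, the summed level of the 33 claudin genes in CPM per kb for each library. Right, the share of that sum in percent held by each claudin, with claudins outside the 6 named ones in grey. The control bars are mostly Cldn2 and Cldn3, Cldn3 is missing from the clone bars, and Cldn1 and Cldn34c1 appear in both clones while Cldn19 appears in Vcam1KO1.

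The other claudins were mostly silent. Of 27 listed, 26 were in the table, 17 had 3 counts or fewer in every library and 7 were tested. In the combined comparison 1 fell and 2 rose, beside 21.2% and 21.7% of all tested genes, and the median log2 fold change was 0.77. Cldn9, which lies beside Cldn6, fell from 1.01 ± 0.131 CPM (SD, n = 3) to 0.167 ± 0.0719 in Vcam1KO1 and 0.0606 ± 0.0118 in Vcam1KO2 (log2 fold change -3.12 ± 0.47, adjusted p = 0.000664). Cldn34c1, whose relatives in the same cluster can share its reads, rose from 1.75 ± 0.215 CPM to 7.16 ± 0.641 and 10.96 ± 0.919 (adjusted p = 0.000125).

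Cldn19, a claudin known from the kidney tubule and the retina, was high in 1 clone. It had 0 counts in all 3 Vcam1ctrl libraries. In Vcam1KO1 libraries it stood at 5.11, 3.85 and 6.88 CPM and in Vcam1KO2 libraries at 0.0685, 0.0424 and 0.0740 CPM. It was at least 437-fold higher in Vcam1KO1 than in control against the floor of 3 counts over the group, and the log2 difference between the clones was 6.39 ± 0.41 (adjusted p = 4.33e-05). With both clones combined its adjusted p was 0.0328, and it was 0.0529 to 0.0847 without control replicate 1, 2 or 3 or without Vcam1KO1 replicate 1 or 2. Cldn19 held 4.03% to 8.21% of the claudin sum in Vcam1KO1 and at most 0.0571% in Vcam1KO2 libraries.

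Other proteins of the junction were read from a list of 41 genes, of which 39 were tested. In the combined comparison 21 fell and 8 rose, beside 21.2% and 21.7% of all tested genes, with a median log2 fold change of -0.71. Among the membrane proteins 8 of 9 tested fell and 1 rose, with a median of -5.15. Among the scaffold and plaque proteins 11 of 22 fell and 5 rose, with a median of -0.67. Of the 8 signalling proteins 2 fell and 2 rose.

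Among the membrane proteins, Lsr (angulin-1), which places tricellulin at the corners where 3 cells meet, went from 257 ± 17.0 CPM to 0.301 ± 0.0681 in Vcam1KO1 and 0.0551 ± 0.0422 in Vcam1KO2 (log2 fold change -10.47 ± 0.63, adjusted p = 3.09e-06). Tricellulin itself, Marveld2, went from 6.60 ± 0.296 CPM to 0.0169 ± 0.0154 and 0.00493 ± 0.00854 (-8.96 ± 0.65, adjusted p = 8.66e-06). Cxadr, the coxsackievirus and adenovirus receptor, fell from 290 ± 35.0 to 9.19 ± 0.789 and 21.6 ± 7.88 CPM (adjusted p = 3.96e-05). Lsr, Marveld2 and Cxadr fell in the same libraries as Ocln and F11r. Jam2, the tested membrane gene of the list that rose, went from 12.25 ± 1.84 CPM to 41.1 ± 6.96 and 35.3 ± 6.04 (adjusted p = 0.000125).

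Among the scaffolds, Tjp1 (ZO-1), the scaffold that nucleates claudin strands, fell from 320 ± 50.6 CPM to 102 ± 7.87 in Vcam1KO1 and 189 ± 2.83 in Vcam1KO2 (log2 fold change -1.14 ± 0.27, adjusted p = 0.00765). Pard3 fell by 0.86 ± 0.13 and Afdn (afadin) by 0.77 ± 0.16 on the log2 scale. Amot (angiomotin), which binds the Patj and Mupp1 scaffolds and YAP, rose by 2.27 ± 0.45, from 31.0 ± 6.83 CPM to 215 ± 15.6 and 83.7 ± 5.97. Other genes of the same list fell to low levels. Prkcz, which encodes atypical protein kinase C zeta of the Par polarity complex, and Patj, a polarity scaffold, were picked after their values were seen. Prkcz went from 24.2 ± 3.90 CPM to 0.0409 ± 0.0379 and 0.0144 ± 0.0141, and Patj from 39.2 ± 4.89 CPM to 3.06 ± 0.362 and 1.13 ± 0.327. The scaffold genes Pard6g and Mpdz, picked in the same way, rose with both clones combined. The log2 fold change was 3.84 ± 0.38 for Pard6g (adjusted p = 5.44e-05) and 1.48 ± 0.14 for Mpdz (adjusted p = 4.56e-05).

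**Figure D4:**
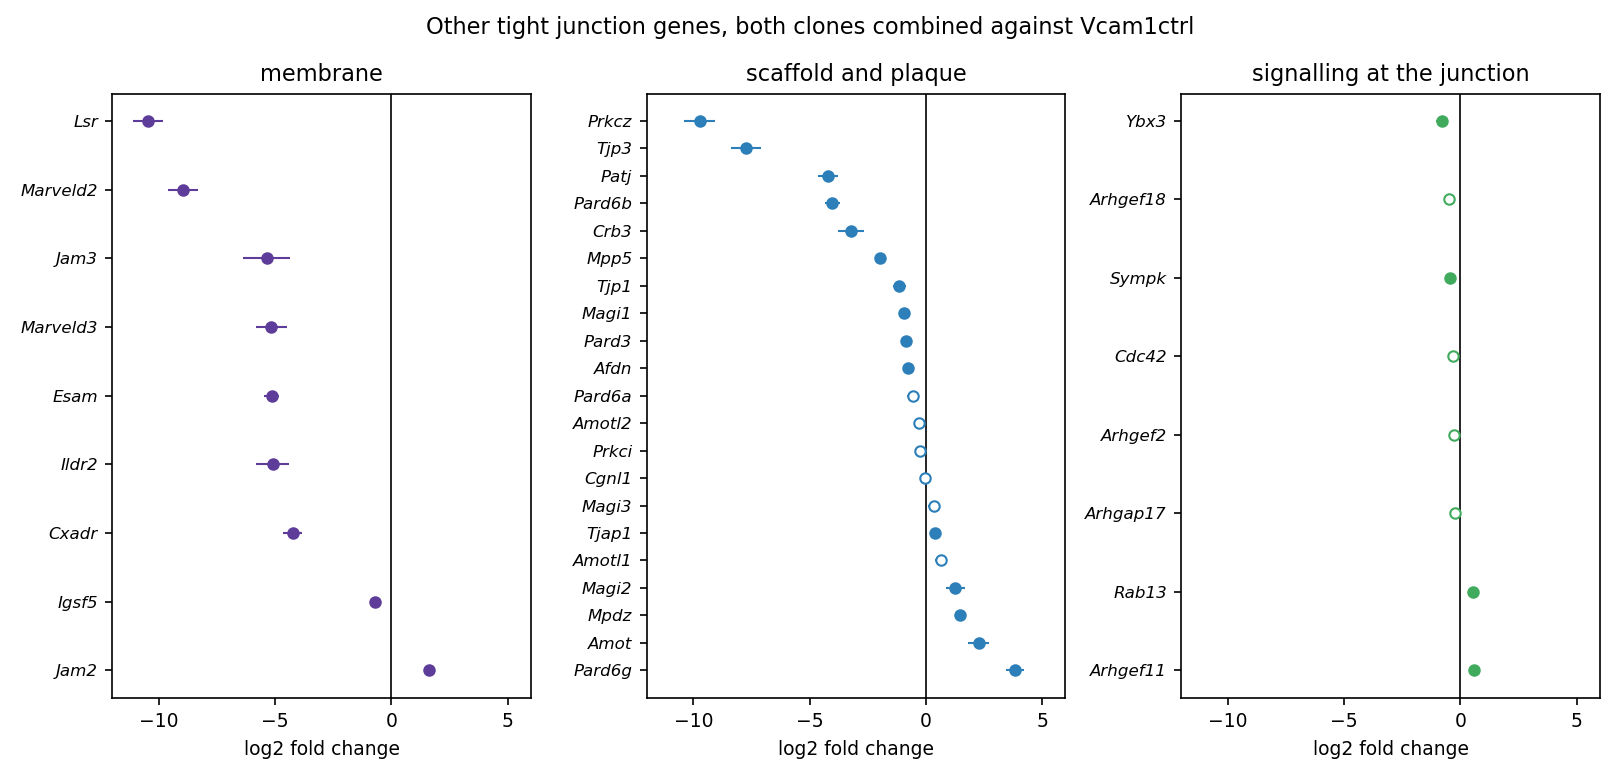
Log2 fold change of both clones combined against Vcam1ctrl (horizontal axis, bars for the standard error) for tested genes of the wider tight junction list, in panels by role. Filled points passed the threshold and open points did not, and the value of Tjp3, which had 0 counts in all 6 clone libraries, depends on the prior count. Most membrane proteins lie left of -4, and the scaffolds spread to both sides of 0.

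EpCAM binds claudin-7 and stabilises it, and matriptase cleaves EpCAM under the control of the Spint inhibitors. Of 6 genes of that system 4 were tested, and these 4 fell with both clones combined, where 21.2% of all tested genes fell. Epcam went from 21.99 ± 4.92 CPM to 0.0334 ± 0.0491 in Vcam1KO1 and 0.00493 ± 0.00854 in Vcam1KO2 (log2 fold change -10.05 ± 0.81, adjusted p = 1.48e-05, and -11.60 without Vcam1KO1 replicate 1). The inhibitor Spint2 went from 356 ± 38.3 CPM to 0.0607 ± 0.0507 and 1.21 ± 0.732 (-9.14 ± 1.16, adjusted p = 0.000234, and -9.90 without Vcam1KO2 replicate 2). Since Cldn7 was not detected in any library, these partners changed in cells without detectable claudin-7 mRNA.

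The transcription factors known to act on these genes were listed as 15 activators and 6 repressors. Of 13 tested activators 10 fell and 1 rose with both clones combined, and of the 6 repressors 4 rose and 1 fell, where 21.2% of all tested genes fell and 21.7% rose. One of the repressors that rose, Snai1, did not pass without control replicate 1 (adjusted p = 0.0699) or 3 (adjusted p = 0.0639), and its log2 fold change moved from 1.70 to 2.32 without replicate 2. Hnf4a, a nuclear receptor of liver and gut epithelium, went from 226 ± 32.8 CPM to 0 counts in all 6 clone libraries, at least 31630-fold lower against a floor of 3 counts over the 6. Klf5, a Krüppel-like factor of epithelia, fell from 104 ± 3.37 to 0.606 ± 0.282 CPM in Vcam1KO1 and 5.05 ± 1.90 CPM in Vcam1KO2, lower in Vcam1KO1 as Cldn2, Ocln, F11r and Cgn were. Elf3, an epithelial ETS factor, fell from 27.6 ± 4.77 to 1.88 ± 0.902 and 4.98 ± 2.0 CPM. Among the repressors, Zeb1 rose from 30.5 ± 2.13 to 77.4 ± 6.98 and 66.8 ± 5.32 CPM and Zeb2 from 19.0 ± 4.05 to 37.6 ± 3.30 and 47.7 ± 7.54 CPM. The activator that rose was Foxa1, from 0.620 ± 0.116 to 9.55 ± 0.772 and 12.4 ± 0.422 CPM (adjusted p = 3.38e-06). The repressor that fell was Twist1 (adjusted p = 0.00284), with 14, 0 and 0 counts in Vcam1KO1 and 0 in Vcam1KO2 libraries. Klf4, the most abundant factor that passed, fell, but Vcam1KO2 replicate 1 (119 CPM) lay above control replicate 2 (115 CPM). Whether any of these factors had a part in the junction genes was not tested.

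The promoters of the 10 members were read from RefSeq (GRCm38.p6), as the 250 bases before each of their 14 annotated starts. Letters read by known regulators were searched on both strands: CAGGTG, the E-box of Zeb and Snail proteins, AACNNGTT, the core read by grainyhead-like factors, and CAAAGTCCA, a site of HNF4 receptors. CAGGTG was found in 5 of the 14 windows, those of Cldn4, Cldn6, Cldn7, Ocln and F11r, and in 17.2% of 32851 windows of that length at annotated mouse starts. AACNNGTT was found in 1 of the 14 windows, that of Cgn, and in 3.64% of all windows. CAAAGTCCA was found in none of the 14 windows and in 0.384% of all windows. A match is a string of letters and does not show binding, and no match says only that these letters are not in this window. No match overlapped a match of another motif. The windows below are shown for the gene that rose (Cldn1), for the neighbours that dropped to or near 0 counts together (Cldn3 and Cldn4) and for the plaque gene with the one grainyhead-like match (Cgn). Each is written 5′ to 3′ on the strand of the gene, and capitals mark the motif letters.
Cldn1, chr16:26371840-26372089, minus strand, no motif: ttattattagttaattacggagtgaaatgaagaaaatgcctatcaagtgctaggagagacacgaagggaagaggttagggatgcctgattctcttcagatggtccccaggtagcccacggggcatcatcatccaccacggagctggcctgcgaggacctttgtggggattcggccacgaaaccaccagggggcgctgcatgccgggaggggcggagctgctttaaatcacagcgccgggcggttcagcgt
Cldn3, chr5:134985964-134986213, plus strand, no motif: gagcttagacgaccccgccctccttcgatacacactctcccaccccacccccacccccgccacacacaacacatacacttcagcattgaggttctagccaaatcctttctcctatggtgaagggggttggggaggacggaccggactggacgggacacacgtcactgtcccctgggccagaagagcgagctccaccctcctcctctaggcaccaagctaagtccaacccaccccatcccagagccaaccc
Cldn4, chr5:134946935-134947184, minus strand, CACCTG 14 bases before the start: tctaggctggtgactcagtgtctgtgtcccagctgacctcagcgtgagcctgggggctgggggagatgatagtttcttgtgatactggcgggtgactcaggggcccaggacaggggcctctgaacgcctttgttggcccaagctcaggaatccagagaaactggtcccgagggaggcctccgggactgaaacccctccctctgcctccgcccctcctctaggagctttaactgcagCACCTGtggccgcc
Cgn, chr3:94786483-94786732, minus strand, AACAGGTT 29 bases before the start: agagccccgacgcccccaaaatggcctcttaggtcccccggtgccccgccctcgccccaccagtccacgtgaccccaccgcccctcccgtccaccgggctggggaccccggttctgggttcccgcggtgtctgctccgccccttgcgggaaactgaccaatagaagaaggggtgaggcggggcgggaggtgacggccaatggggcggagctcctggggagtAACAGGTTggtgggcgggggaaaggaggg

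These windows differed in their content of G and C. Cgn had 70.4% G and C, Cldn4 62.0%, Cldn3 60.8% and Cldn1 55.6%, where the middle 50% of all windows lay between 45.2% and 61.2%. The ratio of observed to expected CpG was 0.745 for Cldn1 and 0.614 for Cgn, against 0.437 for Cldn3 and 0.291 for Cldn4. The median ratio of all windows was 0.373.

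Some members lie next to other junction genes. Cldn3 and Cldn4 have 1 exon each and face away from each other on chromosome 5, 39.3 kb apart (chr5:134986214-134987472 and chr5:134945119-134946934, GENCODE vM21). Both fell, from control levels of 128 ± 16.3 and 0.381 ± 0.127 CPM. With both clones combined the genes on the far sides of the pair did not pass. Abhd11 had 31.4 ± 2.59 CPM in Vcam1ctrl, 28.2 ± 0.745 in Vcam1KO1 and 31.2 ± 1.81 in Vcam1KO2 (adjusted p = 0.589), and Mettl27 had 18.8 ± 5.94, 19.8 ± 5.17 and 8.03 ± 2.55 CPM (adjusted p = 0.46), and was lower in Vcam1KO2 alone (adjusted p = 0.0094). Cldn3 lies under the antisense gene Wbscr25, from which the stranded reads were kept apart. Ocln (chr13:100496507-100552718) lies 43.2 kb from Marveld2, which fell with it, and 3.93 kb from Gtf2h2, a subunit of a general transcription factor, which had 23.3 ± 6.98, 13.5 ± 2.53 and 23.7 ± 0.92 CPM (adjusted p = 0.404) and was lower in Vcam1KO1 alone (adjusted p = 0.0115).

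Of the 18 neighbouring genes that were not members, 16 were tested, 4 fell and 2 rose, with a median log2 fold change of -0.38 with both clones combined, where 21.2% of all tested genes fell and 21.7% rose. P3h2, a prolyl hydroxylase of collagen and the neighbour of Cldn1 at 251 kb, was one of the 2 that rose, from 9.36 ± 2.63 CPM to 119 ± 18.1 and 22.9 ± 4.60 (log2 fold change 2.92 ± 0.78, adjusted p = 0.0138). It did not pass without control replicate 1 (adjusted p = 0.0579) or 2 (adjusted p = 0.0605). Cldn6 lies 0.137 kb from Cldn9 on chromosome 17. Cldn7 (chr11:69964779-69967885), with 0 counts, lies 0.336 kb from Elp5, a subunit of the Elongator complex, which had 95.3 ± 5.93, 50.9 ± 4.56 and 53.8 ± 2.77 CPM (adjusted p = 0.000103). Cldn2 (chrX:139800828-139811386) lies between Ripply1, which rose from 0.287 ± 0.187 CPM to 1.86 ± 0.743 and 8.92 ± 1.19 (log2 fold change 4.23 ± 0.94, adjusted p = 0.00558, and 4.89 without control replicate 3), and Morc4 with 23.0 ± 1.23, 5.97 ± 0.235 and 27.0 ± 0.567 CPM. Morc4 was lower in Vcam1KO1 alone (adjusted p = 8.87e-07), so neither neighbour fell in both clones as Cldn2 did. Selenbp2, which lies 55.7 kb from Cgn, fell with Cgn in both clones. It went from 2.71 ± 1.28 CPM to 0.0641 ± 0.0193 and 0.0114 ± 0.0198 (log2 fold change -6.07 ± 0.79, adjusted p = 0.000265). Pogz, on the other side of Cgn at 51.1 kb, did not pass (adjusted p = 0.3). The other members are at chr16:26356642-26371841 (Cldn1), chr17:23679249-23682446 (Cldn6), chr5:5489537-5514958 (Cldn12), chr1:171437535-171464603 (F11r) and chr3:94760069-94786492 (Cgn).

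The genes whose profile over the 9 libraries was closest to those of Cldn2, F11r and Cldn12, the 3 members with the highest mean CPM over all libraries, were found by the root mean square difference of centred log2 CPM, among 10877 genes with a mean of at least 5 CPM. Closest to Cldn2 were Fat2 (0.30), P2ry2 (0.30) and Eno2 (0.30). Closest to F11r were C130074G19Rik (0.25), P2ry2 (0.28) and Cldn2 itself (0.32). P2ry2, a receptor for extracellular ATP and UTP, stood at 26.6 ± 5.24 CPM in Vcam1ctrl, 0.961 ± 0.261 in Vcam1KO1 and 4.51 ± 0.622 in Vcam1KO2. Closest to Cldn12 were Fam126b (0.11), Trmt1 (0.12) and Ddx19b (0.14).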

How the data were processed

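Messenger RNA of 3 Vcam1ctrl, 3 Vcam1KO1 and 3 Vcam1KO2 libraries was read by the authors as stranded read pairs. The authors pseudoaligned the reads with kallisto 0.46.1 to mm10 (GRCm38) transcripts, and the deposited table holds estimated counts per gene symbol without normalization. The step from transcripts to genes is not given in the sources used here. All values were whole, 0 columns were left out, and libraries were grouped by title and numbered 1 to 3 in the order of their labels. Totals were 53415907 to 125223073 counts, so the spread between libraries limited the precision except for genes with a few counts, and intervals and floors cover counting error only.

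Counts were scaled with TMM, filtered with filterByExpr and tested with edgeR 4.0.16 (R 4.3.3) by the quasi-likelihood test, with p values adjusted by Benjamini and Hochberg's method. The combined comparison set 6 clone libraries against 3 control libraries. It treated the 6 as replicates although they come from 2 clones, so it gives no test over independent clones. Each clone against control and the clones against each other came from a fit with 3 groups over 9 libraries. A standard error is the log2 fold change divided by the square root of F. Alternatives were limma-voom (limma 3.58.1), DESeq2 1.42.0, upper-quartile and RLE scaling, 2 other filters, a demand for a 2-fold change, leaving out each library, the average of both clones' contrasts and fits on the 6 libraries compared. The fits were run on simulated data in which 200 genes changed by 2-fold, alike in both clones. Far more genes changed here and the clones differed, so that run does not show how the fits perform on these data. Lengths, positions and neighbours came from GENCODE vM21 on GRCm38, and promoters from RefSeq tables, in which all 10 members were found. Protein sequences were not used here, and some items are not reported here.

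The members and the gene lists were chosen with earlier results of these data known. From the other lists genes that passed with both clones combined could be named, those with the highest mean level first and at most 10 a list. Not all of these are described. Neighbours and the 3 closest profiles were named by position and by likeness. Krt19, Spp1, Sox9, Col1a1, Dcn, Prkcz, Patj, Pard6g, Mpdz, Jam2, Foxa1, Twist1, Cd68, Ptprc and Cd3e were named after their values were seen. Levels for the likeness used log2 CPM with a prior count of 2.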

Additional observations from a re-analysis of the deposited data

Results flagged for a closer look

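The fall of 4 junction genes differed between the clones. The log2 fold change in Vcam1KO1 minus that in Vcam1KO2 was -2.03 for Cldn2, -3.44 for Ocln, -2.65 for F11r and -2.50 for Cgn, each past the threshold of edgeR's quasi-likelihood test of the difference, so all 4 fell further in Vcam1KO1. Among the other claudins the difference was 6.39 for Cldn19, 1.44 for Cldn9, 1.83 for Cldn15 and -0.61 for Cldn34c1. Each of the last 3 lost its call when certain single libraries were left out. The adjusted p of Cldn9 was 0.056 to 0.105 without Vcam1KO1 replicate 1 or 2 or without any one of the 3 Vcam1KO2 libraries. That of Cldn15 was 0.0566 to 0.11 without Vcam1KO1 replicate 2 or 3 or any one Vcam1KO2 library, and that of Cldn34c1 was 0.0523 without Vcam1KO2 replicate 1 and 0.0587 without replicate 2.

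Among other junction proteins the difference between the clones was -0.89 for Tjp1, -0.70 for Ybx3, 1.36 for Amot, -1.23 for Cxadr and 2.37 for Lsr. For the system around EpCAM it was -4.44 for Spint2 and 1.54 for St14. For the transcription factors it was -3.02 for Klf5, 1.26 for Ehf, -4.79 for Foxa2 and -1.40 for Elf3. Klf5, Foxa2 and Elf3, like Cldn2, Ocln, F11r and Cgn, were lower in Vcam1KO1, whereas Lsr, Amot, St14 and Ehf were higher there. Each clone is 1 line, so a difference between clones and a difference between these cell lines cannot be told apart, and groups of 3 libraries are too small for a check of single outlying libraries.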

How the results depend on the processing

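In each comparison with control the 7 members that fell were 6 under the demand for a 2-fold change, which lost Cldn12, and with a filter at a mean of 1 CPM, which removed Cldn4. Of the 4 members higher in Vcam1KO2, 3 were left in a fit on the 6 clone libraries, where Ocln was not tested. All other alternatives run, those without each library in turn included, gave the same counts of members. Among the other claudins the count that fell, 1, was 2 with limma-voom and with the average of both clones' contrasts and 0 with the filter at 1 CPM, which removed Cldn9, and the count that rose, 2, was 1 with limma-voom and with the demand for a 2-fold change. Without one library these counts were 1 to 2 in both directions. For the other junction proteins the count that rose was 8, and 4 with the demand for a 2-fold change. That demand also lowered the calls over all genes, from 7591 to 2973 for both clones combined, from 10586 to 4680 in Vcam1KO1, from 9087 to 3712 in Vcam1KO2 and from 6834 to 1782 between the clones. Among single genes named from the lists, the call with both clones combined was lost without a control library for St14 (adjusted p 0.0793 to 0.0808 without replicate 1 or 3), Snai1 (0.0639 to 0.0699 without replicate 1 or 3) and Sympk (0.0611 without replicate 3), and for Ybx3 without control replicate 1 or 2 or Vcam1KO1 replicate 1 or 2 (0.0536 to 0.106). Foxa2 moved from -5.61 to -6.35 without Vcam1KO2 replicate 3. By the length of the longest coding transcript, an alternative added after seeing the data, the share of Cldn1 in the claudin sum of Vcam1KO2 was 18.7% in place of 15.0% and that of Cldn2 was 48.5% in place of a mean within 52.0% to 54.2%. No paired analysis was possible because the labels give the libraries no replicate numbers that groups share. Differences of genes with a few counts in the clones (Cldn3, Cldn4, Cldn6, Ocln in Vcam1KO1) are limited by depth.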
